A study of Mus musculus with 27 samples.

Results

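The genes described here take up and bind fatty acids in fat cells or act on the lipase that frees them. They are Lpl, Gpihbp1, Angptl4, Cd36, Slc27a1, Slc27a4, Fabp4, Fabp5 and Car3. They were picked by gene symbol as 9 named genes, and the platform's gene table gave them 10 of the 28853 probe sets on the arrays, with 2 for Fabp5. All 9 were among the 19938 genes that entered the tests. Total RNA of 3T3-L1 cells, a mouse preadipocyte line that turns into fat cells in a hormone mixture, had been hybridised to 27 single-colour arrays in 9 groups of 3. The design text describes the 3 arrays of a group as biological triplicates. Flag-ISL1, a tagged form of the LIM-homeodomain transcription factor Isl1, or the empty pMIG vector was carried by the cells, and the labels do not say whether a line came from 1 clone or a pool.

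The mixture was added 2 days after the cells became confluent, in medium with 10% serum. The mixture held 350 nM insulin, 0.5 mM isobutylmethylxanthine, 250 nM dexamethasone and 400 nM biotin. The groups were ISL1 cells at 0 h, which means just before the mixture, vector cells at 0 h, 0.5 h, 1 h, 2 h, 4 h and 8 h, and cells labelled vector and cells labelled ISL1 at 48 h. All groups carried one of these constructs, and uninduced cells at later times were not analysed here.

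Lipoprotein lipase splits the triglyceride of circulating lipoproteins and so frees fatty acids outside the cell. Gpihbp1 anchors the lipase on capillary endothelium, and Angptl4 inactivates it. Cd36 and the transport proteins encoded by Slc27a1 and Slc27a4 carry fatty acids across the cell membrane, and the transport proteins also link them to coenzyme A. Fabp4 and Fabp5 bind fatty acids in the cytosol. Car3 is a carbonic anhydrase that is abundant in fat cells and slow skeletal muscle and does not itself carry fatty acids.

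The Isl1 probe set checked the construct labels. It read 12.64, 12.62 and 12.61 in ISL1 cells at 0 h, against 7.37, 7.47 and 7.17 in vector cells at 0 h (log2 intensity, one value per array). At 48 h it read 12.79, 12.76 and 12.72 on the arrays labelled vector, against 7.48, 8.01 and 7.47 on the arrays labelled ISL1. The signal therefore ran against the labels at 48 h, and no array was moved to another group. In vector cells from 0 h to 8 h the Isl1 signal was highest at 2 h, with a mean of 8.59. The 48 h groups are named below by label with the Isl1 signal beside it, comparisons at 48 h follow the Isl1 signal, and values read by label are given where they end a call, turn a sign or change a size the most. Array medians lay between 7.89 and 8.07, and pairs of arrays in a group correlated between 0.9931 and 0.9986 over all genes. The 3 arrays per group limit the precision of each value.

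Fat cell markers were on average brighter in vector cells than in ISL1 cells before the mixture. The mean log2 intensity of 9 measured of 10 listed fat cell markers lay between 7.77 and 7.87 on ISL1 arrays at 0 h, and between 9.30 and 9.49 on vector arrays at 0 h. It lay between 8.93 and 9.0 on the 48 h arrays labelled vector (high Isl1), and between 10.44 and 10.49 on those labelled ISL1 (low Isl1). In vector cells it declined to between 8.99 and 9.04 at 8 h, with 6 of 9 markers called lower than at 0 h, where 21.9% of all genes were. For the 9 macrophage markers the range was 6.79 to 6.90 on ISL1 arrays and 7.39 to 7.47 on vector arrays at 0 h. Of these 9 markers 1 passed the test, Lyz2, which fell by 4.84, where 10.4% of all genes were lower and 15.3% higher. The macrophage range at 48 h was 6.83 to 6.86 on the arrays labelled vector and 7.02 to 7.11 on those labelled ISL1, where Lyz2 was at -4.49 from vector cells at 0 h. Of 9 listed preadipocyte and fibroblast markers 8 were measured, with a mean of 11.27 to 11.33 on ISL1 arrays and 11.72 to 11.81 on vector arrays at 0 h, and of 10.61 to 10.68 on the arrays labelled vector and 10.70 to 10.79 on those labelled ISL1 at 48 h. The mean of the 8 endothelial markers lay between 7.03 and 7.43 on the arrays of all 9 groups. That of the 7 skeletal muscle markers lay between 7.69 and 8.11. Single markers moved more than these means. Emcn averaged 7.68 on the 48 h arrays labelled vector and 6.30 on those labelled ISL1. Des averaged 8.539 in vector cells at 0 h and 7.855 at 8 h. The share of these differences in fat cell markers and Lyz2 in the results below was not tested. In bulk RNA fewer cells of a type and less RNA per cell cannot be told apart.

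**Figure D1:**
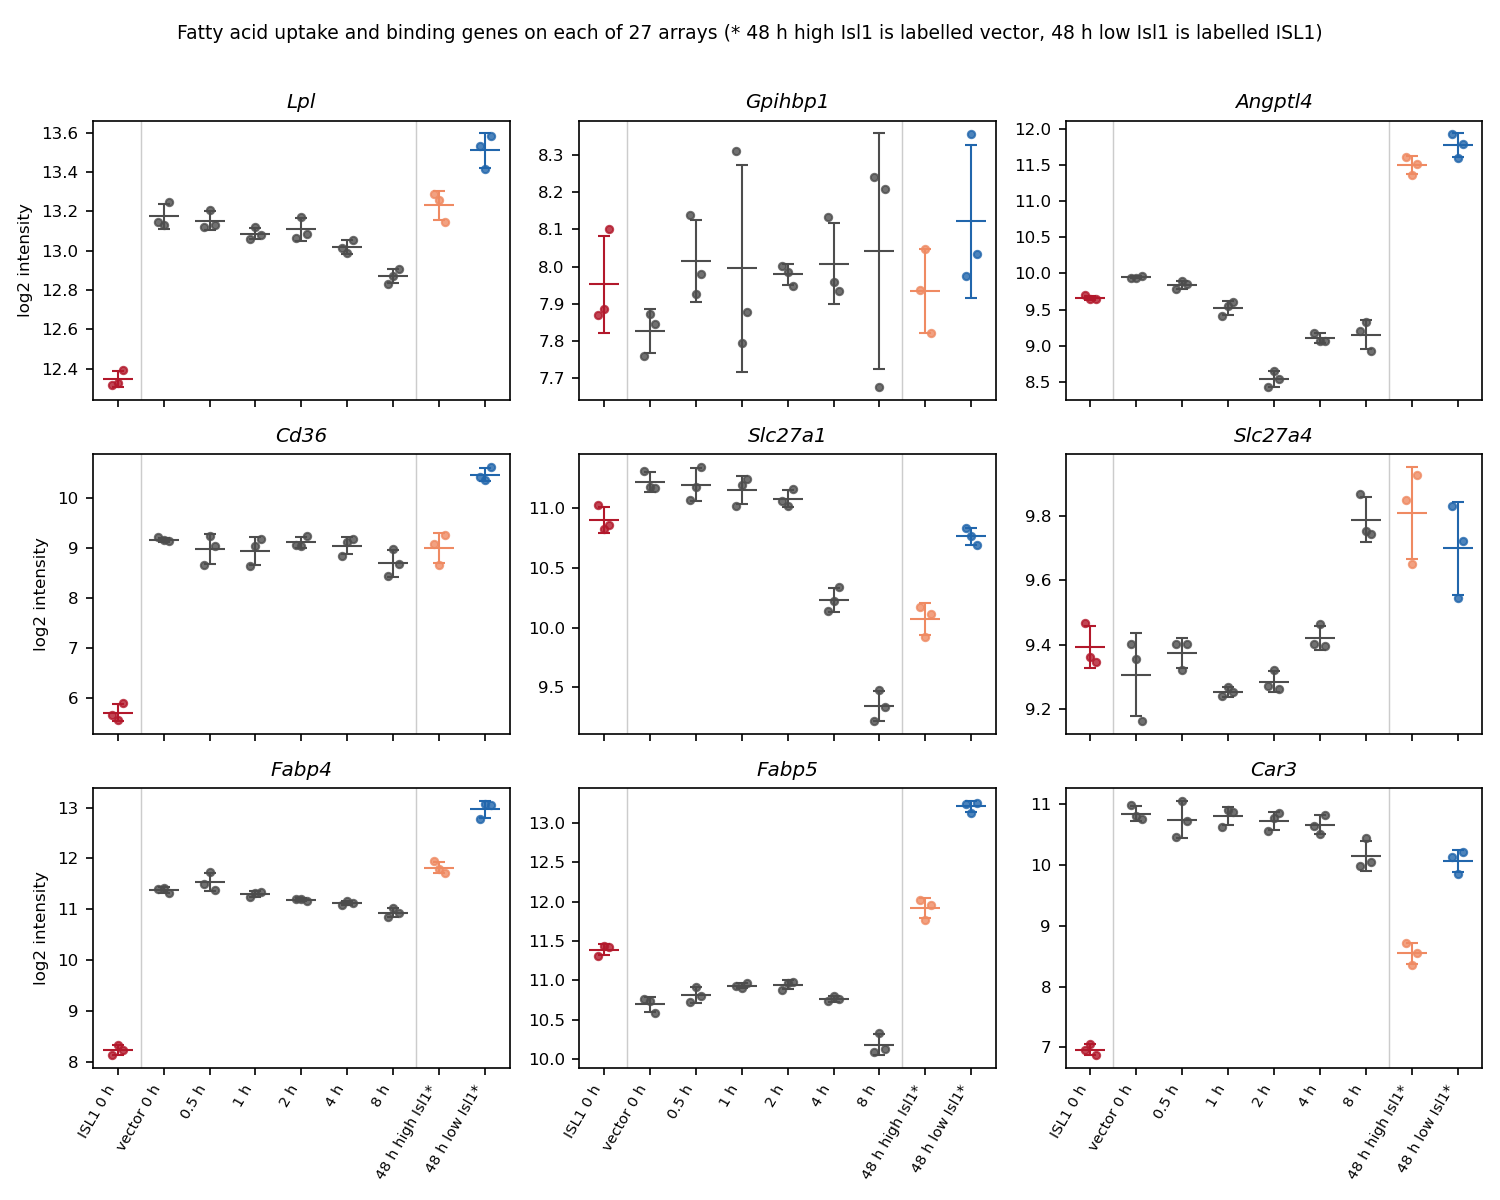
Log2 intensity of the 9 genes on each of 27 arrays, 1 panel per gene with its own vertical axis. Points are arrays, and the long bar and whiskers are the mean ± SD of 3 arrays. Cd36, Fabp4, Lpl and Car3 are lowest in ISL1 cells at 0 h, Angptl4 is lowest at 2 h, and Slc27a1 and Fabp5 are lowest at 8 h.

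Most of these genes had fallen after 8 h of the mixture, with Angptl4 the first to do so, while Slc27a4 rose and Fabp5 rose briefly at 2 h. Each time was set against vector cells at 0 h in 1 fit of all arrays with limma, two-sided, and a gene was called at a Benjamini-Hochberg adjusted p under 0.05 over all 19938 genes. The 0 h vector arrays are shared by all these comparisons. The sample numbers of the 0 h arrays, the 0.5 h to 8 h arrays and the 48 h arrays form separate blocks. Time cannot be told apart from these blocks where 0 h is set against later times or 8 h against 48 h. At 0.5 h none of the 9 genes was called by limma, 0 had an unadjusted p under 0.05, and 0.777% of all genes were called higher and 0.502% lower. At 1 h only Angptl4 was called, lower, where 2.78% of all genes were higher and 4.29% lower. At 2 h Angptl4 was lower and Fabp5 higher, against 10.9% of all genes higher and 17.5% lower. Of all calls, 39.3% at 1 h and 38.4% at 2 h were higher ones, and these shares became 51.8% and 48.6% when every array was centred on its median. At 4 h Angptl4, Slc27a1, Fabp4 and Lpl were called, all lower, and 22.7% of all genes were lower and 17.3% higher.

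By 8 h 7 of the 9 genes were lower than at 0 h, where 21.9% of all genes were lower and 24.2% higher. Slc27a4 was the 1 gene called higher, and Gpihbp1 was not called. The median of the 9 differences was -0.47, and the median over all genes was 0.07. An F test over the vector groups from 0 h to 8 h called 7 of the 9 genes, and 51.7% of all genes. Cd36 (adjusted p 0.146) and Gpihbp1 (adjusted p 0.727) did not pass it, although Cd36 passed the single test at 8 h.

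**Figure D2:**
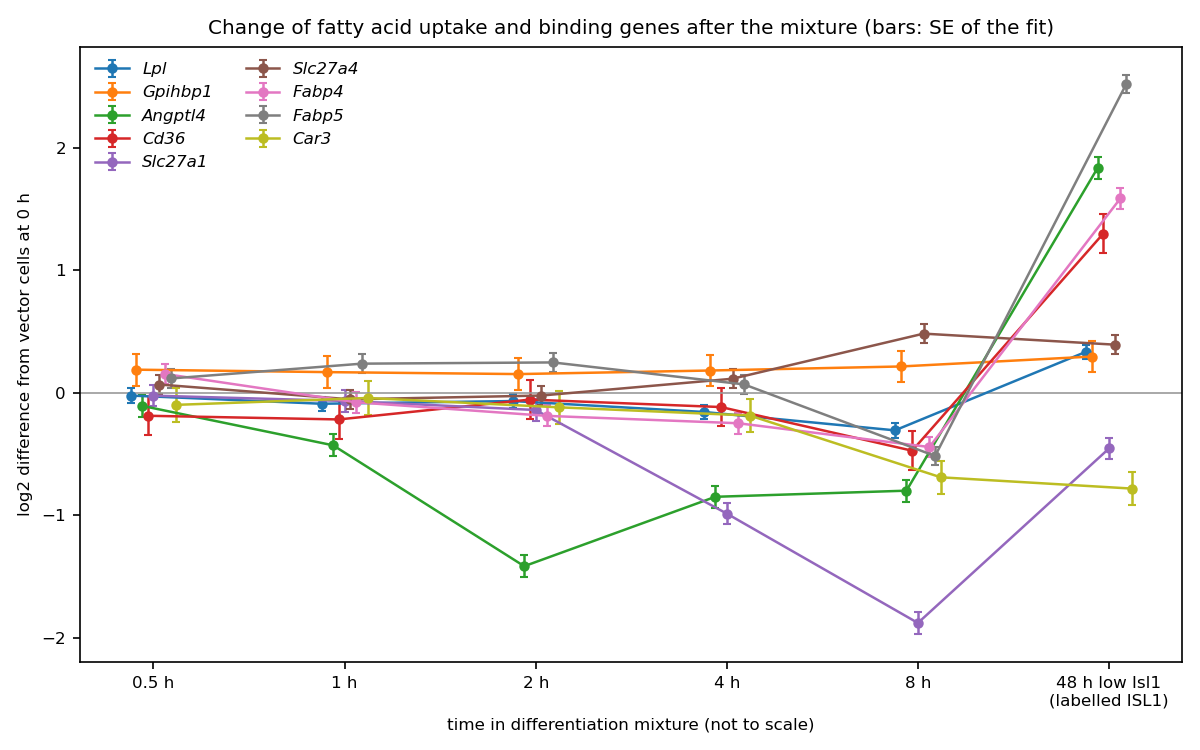
Log2 difference from vector cells at 0 h for each gene at 0.5 h to 8 h and on the 48 h arrays labelled ISL1 (low Isl1), with bars for the SE of the fit. Times are evenly spaced and not to scale. Slc27a1 reaches -1.88 at 8 h, Angptl4 reaches -1.41 at 2 h, and Fabp5 stands at 2.52 at 48 h.

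At 48 h the arrays labelled ISL1 (low Isl1) had 6 of the 9 genes higher than vector cells at 0 h and 2 lower, where 21.3% of all genes were higher and 20% lower. Fabp5, Angptl4, Fabp4, Cd36, Slc27a4 and Lpl were the higher ones, Slc27a1 and Car3 the lower. Against vector cells at 8 h, 6 were higher, namely Fabp5, Angptl4, Fabp4, Cd36, Slc27a1 and Lpl, and 15.7% of all genes were higher and 14.9% lower. Read by label, the 48 h vector arrays showed no call against 0 h for Cd36 (log2 difference -0.17, adjusted p 0.478) or Lpl (0.06, adjusted p 0.539), and no call against 8 h for Cd36 (0.30, adjusted p 0.147), while Car3 was then called lower than at 8 h (-1.61, adjusted p 3.44e-10). Sizes against 0 h were then 0.44 for Fabp4, 1.22 for Fabp5, -1.15 for Slc27a1 and -2.30 for Car3. Against 8 h they were 0.88 for Fabp4, 1.74 for Fabp5, 0.36 for Lpl and 0.73 for Slc27a1.

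Arrays with high Isl1 had less signal for most of these genes at both times. In ISL1 cells at 0 h 6 of the 9 genes were lower than in vector cells and Fabp5 was higher, where 10.4% of all genes were lower and 15.3% higher. On the 48 h arrays labelled vector (high Isl1) 7 were lower than on those labelled ISL1 (low Isl1), and 14% of all genes were lower and 13.8% higher. The median of the 9 differences was -0.31 at 0 h and -0.70 at 48 h, and the medians over all genes were -0.01 and -0.04. Read by label, every 48 h difference has the opposite sign. Between the 2 groups with high Isl1, 7 of the 9 genes were higher at 48 h. The arrays labelled vector (high Isl1), against ISL1 cells at 0 h, had Fabp4, Cd36, Angptl4, Car3, Lpl, Fabp5 and Slc27a4 higher and Slc27a1 lower, and 14.2% of all genes were higher and 19% lower. Read by label, Slc27a1 lost its call there (-0.14, adjusted p 0.211), and the differences were 1.82 for Fabp5, 3.10 for Car3 and 4.75 for Cd36.

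The size of the Isl1-linked difference changed between the times for 6 of the 9 genes. The high-minus-low Isl1 difference at 48 h, less that at 0 h, was above 0 for Car3, Fabp4, Cd36 and Lpl and below 0 for Fabp5 and Slc27a1, and 11.4% of all genes were called above 0 and 13.2% below. For Car3, Fabp4, Cd36 and Lpl both differences were below 0 and the one at 48 h was the smaller. Fabp5 had opposite signs at the 2 times. Read by label, the changes were 5.41 for Car3, 4.29 for Fabp4, 4.92 for Cd36 and 1.11 for Lpl.

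**Figure D3:**
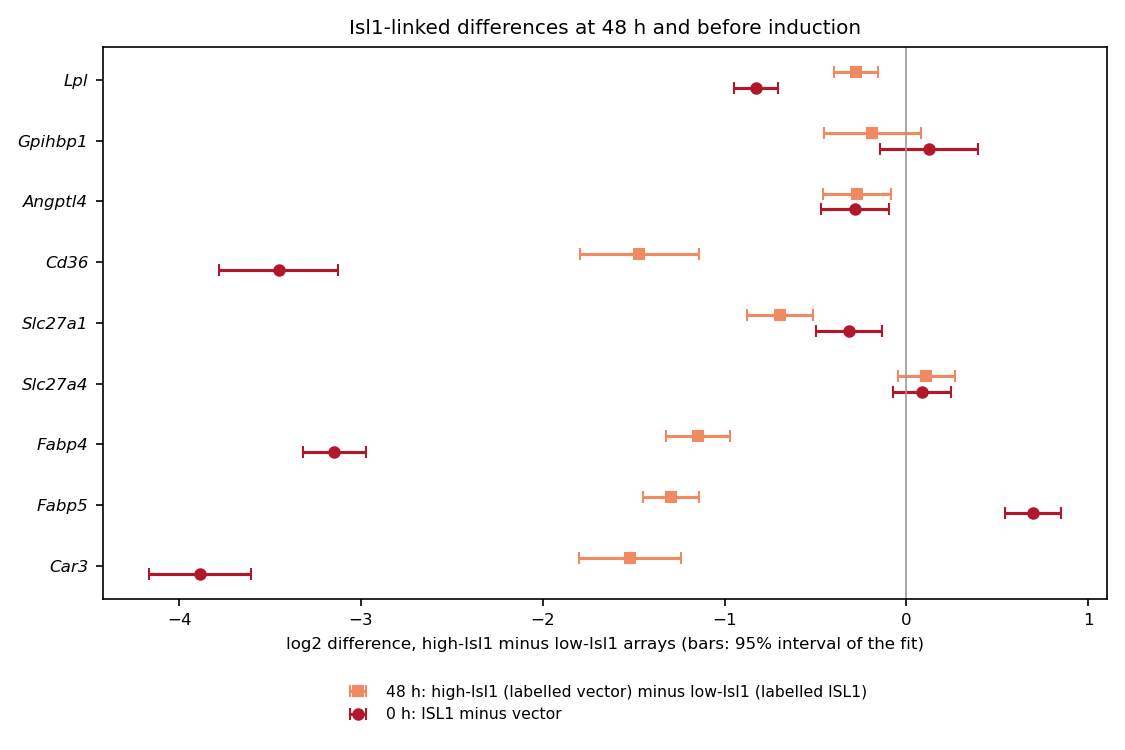
High-Isl1 minus low-Isl1 log2 difference for each gene, with 95% intervals of the fit. Circles are ISL1 minus vector at 0 h and squares are arrays labelled vector (high Isl1) minus arrays labelled ISL1 (low Isl1) at 48 h. Fabp5 lies at 0.70 at 0 h and at -1.30 at 48 h, and Car3 at -3.89 at 0 h and at -1.52 at 48 h.

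Lpl, the lipase, varied within a narrow range. On vector arrays it averaged 13.18 ± 0.063 at 0 h, 13.15 ± 0.049 at 0.5 h, 13.09 ± 0.030 at 1 h, 13.11 ± 0.058 at 2 h, 13.02 ± 0.034 at 4 h and 12.87 ± 0.037 at 8 h (log2 intensity, SD, n = 3). At 8 h the arrays read 12.83, 12.87 and 12.91, against 13.15, 13.13 and 13.25 at 0 h. These arrays did not overlap, and the difference was -0.31 ± 0.059 (log2, SE, adjusted p 0.000101), a 1.24-fold lower level. The call at 4 h (-0.16, adjusted p 0.0364) was lost without vector replicate 3 at 0 h (-0.12, adjusted p 0.17) and without replicate 1 (-0.15, adjusted p 0.0848) or 2 (-0.14, adjusted p 0.112) at 4 h. Median centring (adjusted p 0.206) and a fit of the compared groups alone (adjusted p 0.0681) also ended it. ISL1 cells at 0 h read 12.32, 12.33 and 12.39, all below every vector array from 0 h to 8 h. The log2 difference from vector cells at 0 h was -0.83 ± 0.059 (adjusted p 2.74e-11).

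At 48 h Lpl read 13.29, 13.26 and 13.15 on the arrays labelled vector (high Isl1), against 13.53, 13.41 and 13.59 on those labelled ISL1 (low Isl1). The high-Isl1 arrays were all lower, by 1.21-fold (log2 difference -0.28 ± 0.059, adjusted p 0.00056). The Isl1-linked difference moved by 0.55 ± 0.084 between the times (adjusted p 1.12e-05). In order of level, ISL1 cells at 0 h stood lowest and apart, vector cells at 8 h came next, and the arrays labelled ISL1 at 48 h stood highest and apart. The 6 steps between them did not pass the test, from vector 8 h through 4 h, 1 h, 2 h, 0.5 h and 0 h to the arrays labelled vector at 48 h.

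Gpihbp1, the endothelial anchor of the lipase, showed no call in any of the 11 comparisons. Its group means ran from 7.83 in vector cells at 0 h to 8.12 on the 48 h arrays labelled ISL1, and none of the 8 steps in the order of its levels passed the test. Vector arrays at 8 h read 8.24, 7.68 and 8.21, against 7.76, 7.87 and 7.85 at 0 h. Replicate 2 at 8 h stood below the others, and without it the difference was 0.40 (adjusted p 0.00831), against 0.21 with it (adjusted p 0.184). The 48 h arrays labelled ISL1 (low Isl1) read 7.97, 8.36 and 8.03, all above those 0 h arrays, with a difference of 0.30 ± 0.13 (adjusted p 0.0728) that became 0.37 without replicate 1 (adjusted p 0.0455). Median centring and quantile normalization also gave a call there, with differences of 0.28 (adjusted p 0.0419) and 0.29 (adjusted p 0.0448). So did a fit of the compared groups alone (0.30, adjusted p 0.0377). Array intensity with no detection call does not tell a low level from no expression.

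Angptl4, the secreted inhibitor of the lipase, was the first of these genes to be called lower, at 1 h, and reached its lowest level at 2 h. Vector arrays averaged 9.95 ± 0.017 at 0 h, 9.84 ± 0.058 at 0.5 h, 9.52 ± 0.10 at 1 h, 8.53 ± 0.11 at 2 h, 9.10 ± 0.067 at 4 h and 9.15 ± 0.20 at 8 h. At 2 h the arrays read 8.42, 8.64 and 8.54, against 9.94, 9.94 and 9.97 at 0 h. All 3 arrays at 2 h were below all arrays of every other group. The log2 difference was -0.43 ± 0.091 at 1 h (adjusted p 0.00217), -1.41 at 2 h (adjusted p 2.08e-12, 2.67-fold lower), -0.85 at 4 h and -0.80 at 8 h. The level at 4 h was above that at 2 h by 0.57 (adjusted p 2.17e-05), and the step between 4 h and 8 h did not pass the test.

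By 48 h Angptl4 had risen far above its starting level with either construct. The arrays labelled ISL1 (low Isl1) read 11.94, 11.61 and 11.79, which was 1.83 ± 0.091 above vector cells at 0 h (3.56-fold, adjusted p 4.74e-15) and 2.63 above vector cells at 8 h. The arrays labelled vector (high Isl1) read 11.62, 11.37 and 11.53, which was 1.84 above ISL1 cells at 0 h (3.59-fold, adjusted p 7.04e-15). The Isl1-linked differences were small: -0.28 at 0 h (adjusted p 0.0209) and -0.27 at 48 h (adjusted p 0.0242), where the arrays overlapped. They differed by 0.01, with a 95% interval from -0.25 to 0.28. Read by label, the change was 0.56 and was called (adjusted p 0.00134).

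Neither small difference held without single arrays. At 0 h the call for Angptl4 was lost without vector replicate 3 (-0.27, adjusted p 0.0628) and without ISL1 replicate 2 (-0.28, adjusted p 0.0627) or 3 (-0.28, adjusted p 0.0592). At 48 h it was lost without replicate 1 (-0.19, adjusted p 0.166) or 3 (-0.27, adjusted p 0.0613) labelled ISL1 and without replicate 2 labelled vector (-0.21, adjusted p 0.142). Median centring also ended both calls (adjusted p 0.0708 at 0 h and 0.0955 at 48 h), and a fit of the compared groups alone ended the one at 48 h (adjusted p 0.0813).

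Cd36, Slc27a1 and Slc27a4 all move fatty acids through the membrane, and each had a pattern of its own. RefSeq's promoter table for GRCm38.p6 held 3 of the 9 genes, these 3, with 5 promoters of 300 bases, from 250 before to 50 after a transcript start. They were the only promoters listed for the 9 genes, and the 3 genes moved differently. Of the 3, Cd36 was lower with high Isl1 by the most, Slc27a1 fell most within 8 h of the mixture, and Slc27a4 rose at 8 h. Slc27a1 has 3 of the 5 promoters, and the most upstream is printed. The Cd36 window lies inside the gene's span of 17781690 to 17888959, not at its 5′ end. Each sequence is on the gene's strand, 5′ to 3′, and capitals mark matches to the motifs named after them.
Cd36, minus strand, chr5:17835847-17836146: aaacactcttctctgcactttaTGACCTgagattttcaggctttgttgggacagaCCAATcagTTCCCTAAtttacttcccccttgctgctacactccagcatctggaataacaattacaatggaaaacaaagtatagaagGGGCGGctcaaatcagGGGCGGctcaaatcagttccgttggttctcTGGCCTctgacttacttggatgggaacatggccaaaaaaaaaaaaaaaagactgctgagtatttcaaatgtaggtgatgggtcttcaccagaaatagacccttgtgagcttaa
Slc27a1, plus strand, chr8:71568621-71568920: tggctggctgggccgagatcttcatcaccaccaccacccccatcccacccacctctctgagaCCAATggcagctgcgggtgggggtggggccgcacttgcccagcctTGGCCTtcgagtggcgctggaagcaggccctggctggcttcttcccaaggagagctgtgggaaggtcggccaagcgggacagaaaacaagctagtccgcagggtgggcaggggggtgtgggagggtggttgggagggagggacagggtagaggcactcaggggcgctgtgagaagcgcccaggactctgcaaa
Slc27a4, plus strand, chr2:29802384-29802683: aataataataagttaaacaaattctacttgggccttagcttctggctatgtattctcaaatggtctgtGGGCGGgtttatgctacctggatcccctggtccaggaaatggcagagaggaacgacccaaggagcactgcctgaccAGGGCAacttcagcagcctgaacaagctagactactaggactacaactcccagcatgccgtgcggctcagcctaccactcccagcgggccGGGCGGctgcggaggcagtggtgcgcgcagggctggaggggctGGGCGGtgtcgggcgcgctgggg

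Letters were searched on both strands for the GC box (GGGCGG), a nuclear receptor half-site (AGGNCA), a C/EBP site (TTNNGNAA), the CCAAT box (CCAAT), the TATA box (TATAAA) and an AP-1 site (TGANTCA). The Cd36 window held 2 GC boxes, 2 half-sites, 1 C/EBP match and 1 CCAAT box. The printed Slc27a1 window held 1 half-site and 1 CCAAT box, and the Slc27a4 window 3 GC boxes and 1 half-site. Of the Slc27a1 windows not printed, the one starting at 71569347 held 1 GC box and 1 half-site. The one starting at 71570344 held 3 GC boxes, 2 C/EBP matches and 1 CCAAT box. No matches overlapped in these windows, and none held TATAAA or TGANTCA. Among all 32851 promoters listed, 35.7% held GGGCGG, 57.2% AGGNCA, 40.7% TTNNGNAA, 37.4% CCAAT, 13.6% TATAAA and 7.81% TGANTCA. G and C made up 43.0% of the Cd36 window, 65.7% of the printed Slc27a1 window and 58.7% of the Slc27a4 window. These matches describe letters and are common in promoters at large.

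Cd36, the fatty acid translocase, was lower with high Isl1 at both times. ISL1 cells at 0 h read 5.68, 5.57 and 5.91, against 9.21, 9.15 and 9.14 in vector cells. The groups lay more than 3 log2 units apart, and the difference was -3.45 ± 0.16 (10.9-fold lower, adjusted p 3.91e-15). With no detection call used, the level in ISL1 cells cannot be told from background, and the fold may then be a lower limit. The same holds for the rise from this level by 48 h and for the change between the times. At 48 h it read 9.08, 8.66 and 9.26 on the arrays labelled vector (high Isl1), against 10.42, 10.37 and 10.62 on those labelled ISL1 (low Isl1). The arrays again did not overlap, with a difference of -1.47 ± 0.16 (2.77-fold lower, adjusted p 4.2e-08). The Isl1-linked difference was thus 1.98 ± 0.22 smaller in size at 48 h (adjusted p 1.14e-07).

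Cd36 was higher at 48 h than at 0 h at either Isl1 level. The arrays labelled ISL1 (low Isl1) stood 1.30 ± 0.16 above vector cells at 0 h (adjusted p 1.35e-07), and those labelled vector (high Isl1) 3.28 ± 0.16 above ISL1 cells at 0 h (adjusted p 4.51e-15). In the order of levels ISL1 cells at 0 h stood lowest and apart, and the arrays labelled ISL1 at 48 h highest and apart. The arrays labelled vector at 48 h lay among the vector arrays of 0 h to 8 h, and none of the 6 steps there passed the test. Within the first 8 h the single call was at 8 h, where the arrays read 8.44, 8.98 and 8.68 and the difference from 0 h was -0.47 ± 0.16 (adjusted p 0.0163). Without vector replicate 1 at 8 h it was -0.34 (adjusted p 0.12).

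Slc27a1, which encodes fatty acid transport protein 1, fell later than Angptl4 and by more than any other of the 9 genes in the first 8 h. On vector arrays it averaged 11.22 ± 0.080 at 0 h, 11.20 ± 0.14 at 0.5 h, 11.15 ± 0.12 at 1 h, 11.08 ± 0.072 at 2 h, 10.24 ± 0.10 at 4 h and 9.34 ± 0.13 at 8 h. At 8 h the arrays read 9.22, 9.48 and 9.33, against 11.31, 11.18 and 11.17 at 0 h. The arrays at 4 h and at 8 h were all below those at 0 h to 2 h. The log2 difference was -0.99 ± 0.088 at 4 h (adjusted p 5.7e-10) and -1.88 ± 0.088 at 8 h (3.67-fold lower, adjusted p 1.9e-15).

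At 48 h Slc27a1 stood between its 8 h and 0 h levels. It read 10.18, 9.92 and 10.12 on the arrays labelled vector (high Isl1), against 10.84, 10.76 and 10.70 on those labelled ISL1 (low Isl1). The high-Isl1 arrays were lower, with a difference of -0.70 ± 0.088 (adjusted p 6.11e-07). Low-Isl1 arrays were 1.42 above vector cells at 8 h (2.68-fold) and 0.45 below those at 0 h (log2 difference -0.45, adjusted p 0.000119). ISL1 cells at 0 h read 11.03, 10.83 and 10.86 and were -0.31 ± 0.088 from vector cells (adjusted p 0.00813), a call lost without vector replicate 1 (-0.27, adjusted p 0.0507) or ISL1 replicate 2 (-0.27, adjusted p 0.0508). The Isl1-linked difference moved by -0.38 ± 0.12 between the times (adjusted p 0.0247).

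That change of the Slc27a1 difference passed the test narrowly, and read by label it was 1.01 (adjusted p 3.86e-07). Median centring ended the call (-0.37, adjusted p 0.0831). It also lost its call without vector replicate 2 (-0.36, adjusted p 0.0582) or 3 (-0.36, adjusted p 0.0587) at 0 h and without ISL1 replicate 1 at 0 h (-0.32, adjusted p 0.086). At 48 h it lost it without replicate 1 labelled ISL1 (-0.34, adjusted p 0.066) and without replicate 2 labelled vector (-0.31, adjusted p 0.0887).

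Slc27a4, which encodes fatty acid transport protein 4, was the only gene of the 9 that was called higher at 8 h. Its vector arrays read 9.87, 9.75 and 9.74 at 8 h, against 9.40, 9.36 and 9.16 at 0 h. All 3 arrays at 8 h were above all vector arrays at earlier times, and the difference was 0.48 ± 0.077 (1.40-fold, adjusted p 7.2e-06). The level was still raised on the 48 h arrays, by 0.39 for those labelled ISL1 (low Isl1) over vector cells at 0 h (adjusted p 0.000123) and by 0.42 for those labelled vector (high Isl1) over ISL1 cells at 0 h (adjusted p 7.73e-05). The difference linked to Isl1 did not pass the test at either time. It was 0.09 at 0 h (95% interval -0.07 to 0.24) and 0.11 at 48 h (-0.05 to 0.27). In the order of levels the 9 groups formed a lower and an upper set, split between vector cells at 4 h and the 48 h arrays labelled ISL1 (0.28, adjusted p 0.0044), and no step within either set passed.

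Fabp4, the main cytosolic fatty acid carrier of fat cells, was like Cd36 lower with high Isl1 at both times. ISL1 cells at 0 h read 8.14, 8.33 and 8.24, against 11.40, 11.42 and 11.32 in vector cells. There was no overlap, and the log2 difference was -3.15 ± 0.085 (8.85-fold lower, adjusted p 4.89e-20). The mean of 8.23 in ISL1 cells lay near 8.28, the median over all genes. With no detection call used, this fold too may be a lower limit. So may the rise from this level by 48 h and the change between the times. At 48 h it read 11.94, 11.79 and 11.72 on the arrays labelled vector (high Isl1), against 12.78, 13.06 and 13.06 on those labelled ISL1 (low Isl1), a difference of -1.15 ± 0.085 (2.21-fold lower, adjusted p 4.5e-11). The Isl1-linked difference was 2.00 ± 0.12 smaller in size at 48 h (adjusted p 2.91e-12).

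In the mixture Fabp4 first dipped and then rose. Vector arrays averaged 11.38 ± 0.053 at 0 h, 11.53 ± 0.18 at 0.5 h, 11.30 ± 0.050 at 1 h, 11.19 ± 0.029 at 2 h, 11.13 ± 0.039 at 4 h and 10.94 ± 0.090 at 8 h. The log2 difference from 0 h was -0.44 ± 0.085 at 8 h (adjusted p 8.85e-05). The smaller one at 4 h (-0.25, adjusted p 0.0198) was not called without vector replicate 1 (-0.24, adjusted p 0.0577) or 2 (-0.23, adjusted p 0.066) at 0 h or without replicate 1 at 4 h (-0.23, adjusted p 0.0689), nor under median centring (-0.22, adjusted p 0.0692). By 48 h the arrays labelled ISL1 (low Isl1) stood 1.59 above vector cells at 0 h (3.00-fold, adjusted p 2.15e-14), and those labelled vector (high Isl1) 3.59 above ISL1 cells at 0 h (12-fold, adjusted p 1.94e-21).

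Fabp5, the other cytosolic carrier and one that many cell types use, was the only one of the 9 called higher in ISL1 cells before the mixture. ISL1 cells at 0 h read 11.32, 11.43 and 11.43, against 10.76, 10.74 and 10.59 in vector cells. Every ISL1 array was higher, by 0.70 ± 0.075 (1.62-fold, adjusted p 4.13e-08). At 48 h the sign was the opposite: 12.02, 11.77 and 11.95 on the arrays labelled vector (high Isl1), against 13.25, 13.13 and 13.26 on those labelled ISL1 (low Isl1), which is -1.30 ± 0.075 (2.46-fold lower, adjusted p 3.33e-13). The test of that change gave -2.00 ± 0.11 (adjusted p 2.99e-13). Read by label the change was 0.60 (adjusted p 6.62e-05), so the sign of this result rests on how the 48 h arrays are read.

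Fabp5 had the largest rise of the 9 genes from 0 h to 48 h on the arrays labelled ISL1 (low Isl1), at 2.52 ± 0.075 (5.73-fold, adjusted p 1.56e-19), and it stood 3.03 above vector cells at 8 h. Before that it rose slightly up to 2 h in vector cells and then fell. Its means were 10.70 ± 0.094 at 0 h, 10.81 ± 0.097 at 0.5 h, 10.93 ± 0.032 at 1 h, 10.94 ± 0.056 at 2 h, 10.76 ± 0.036 at 4 h and 10.18 ± 0.13 at 8 h. The rise at 2 h was 0.25 (adjusted p 0.0123), or 0.19 without vector replicate 3 at 0 h (adjusted p 0.089), and the 1 h difference of 0.24 was not called (adjusted p 0.0541). At 8 h it had fallen by 0.51 (adjusted p 1.96e-06). The other Fabp5 probe set gave close values, with 0.29 at 1 h (adjusted p 0.0171), -0.50 at 8 h, 2.61 at 48 h and 0.73 for ISL1 at 0 h. Signal from near-identical copies of Fabp5 elsewhere in the genome cannot be told apart with these probe sets.

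Car3, carbonic anhydrase 3, was lower with high Isl1 at both times. ISL1 cells at 0 h read 6.95, 7.05 and 6.88, against 10.99, 10.80 and 10.75 in vector cells. The groups lay well apart, with a difference of -3.89 ± 0.14 (14.8-fold lower, adjusted p 1.45e-17). Its level in ISL1 cells was dim, so this fold too may be a lower limit and was not ranked against that of Cd36. The rise of Car3 from this level by 48 h and its change between the times may be lower limits as well. At 48 h it read 8.72, 8.36 and 8.55 on the arrays labelled vector (high Isl1), against 10.13, 9.85 and 10.21 on those labelled ISL1 (low Isl1), a difference of -1.52 ± 0.14 (2.87-fold lower, adjusted p 1.88e-09). The Isl1-linked difference was 2.37 ± 0.19 smaller in size at 48 h (adjusted p 5.15e-10).

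Car3 was lower at 48 h than at 0 h where Isl1 was low. Its highest mean was that of vector cells at 0 h. At 8 h it read 9.98, 10.44 and 10.05, a difference of -0.69 ± 0.14 from 0 h (adjusted p 0.000142). The 48 h arrays labelled ISL1 (low Isl1) were at -0.78 from 0 h (1.72-fold lower, adjusted p 3.37e-05) and at -0.09 from 8 h (adjusted p 0.726). The arrays labelled vector (high Isl1) stood 1.58 above ISL1 cells at 0 h (3.00-fold, adjusted p 4.13e-10).

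Pparg and Cebpa, transcription factors that drive fat cell genes, are given for context. Pparg was at -0.38 in ISL1 against vector cells at 0 h (adjusted p 1.74e-05) and at -0.45 on high-Isl1 against low-Isl1 arrays at 48 h (adjusted p 1.32e-06), and the change between the times was not called (-0.07, adjusted p 0.683). Cebpa was at -1.14 at 0 h (adjusted p 1.31e-09) and at -1.98 at 48 h (adjusted p 2.87e-14), a change of -0.84 (adjusted p 5.06e-05). From vector cells at 0 h to the 48 h arrays labelled ISL1 (low Isl1) Pparg rose by 1.29 and Cebpa by 2.10.

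Likeness of pattern was measured as Pearson's r over the 9 group means, among 2025 genes whose group means had an SD of at least 0.5 log2. The points share the same arrays, and the values are a description. Cd36 was most like Fabp4 (0.981), then Prxl2a (0.961) and Retn (0.960), the resistin gene. Fabp4 was most like Retn (0.988), Prxl2a (0.985) and Cd36, and Lpl most like Cyp2f2 (0.988), Fabp4 (0.985) and Retn (0.974). Car3 was nearest to Chrdl1 (0.982), Lum (0.968) and Adipoq (0.958), the adiponectin gene. The remaining genes had other neighbours: Fabp5 had Dusp18 (0.977), Kcnk3 (0.965) and Mgst3 (0.960), and Angptl4 had Stat5a (0.983), Lef1 (0.965) and Gnpat (0.952). Slc27a1 was nearest to Ebf1 (0.959), Strbp (0.954) and Egfr (0.947), and Slc27a4 to Peli2 (0.954), Tmem199 (0.953) and Stk39 (0.948). Among the 9 genes themselves Slc27a1 and Slc27a4 had the most opposed pattern, with r of -0.802, and Cd36 and Fabp5 had 0.281.

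Among related genes of fatty acid handling the clearest changes were those of Acsl4 and Acot2. Of 24 measured of 27 listed, covering further transporters, binding proteins, acyl-CoA synthetases, carnitine transferases and thioesterases, 9 were called higher and 4 lower at 8 h, where 24.2% of all genes were higher and 21.9% lower. The median difference was 0.13, against 0.07 over all genes. Acsl4, an acyl-CoA synthetase that prefers long polyunsaturated fatty acids, averaged 12.55 at 2 h, against 10.27 at 0 h. It was already 0.62 higher at 1 h (adjusted p 8.31e-09), and reached 2.28 at 2 h, 2.83 at 4 h (7.13-fold, adjusted p 1.48e-22) and 2.54 at 8 h. Acot2, a mitochondrial thioesterase that frees fatty acids from coenzyme A, went the other way, with -0.44 at 2 h, -1.32 at 4 h and -1.96 at 8 h (3.88-fold lower, adjusted p 1.97e-16). Cpt1a, which starts the entry of fatty acids into mitochondria, fell by 0.56 at 8 h.

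The counts of the same list with Isl1 lay near the shares over all genes. In ISL1 cells at 0 h 4 of 24 were higher and 3 lower, against 15.3% and 10.4% of all genes, and on the 48 h arrays labelled vector (high Isl1) 3 were higher and 4 lower than on those labelled ISL1 (low Isl1), against 13.8% and 14% of all genes. Cpt1a was 1.09 higher on the high-Isl1 arrays (2.13-fold, adjusted p 4.36e-14), and Cpt2, which completes the carnitine shuttle, 0.76 lower (log2 difference -0.76, adjusted p 1.57e-08). From vector cells at 0 h to the low-Isl1 arrays Cpt2 rose by 1.23, while Cpt1a fell by 0.69.

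Genes that serve lipoprotein lipase or take up lipoproteins were measured for 15 of 19 listed. At 8 h 4 were higher and 5 lower, against 24.2% and 21.9% of all genes. Sdc1, a heparan sulfate proteoglycan that binds the lipase and lipoproteins, averaged 12.55 at 8 h, against 11.39 at 0 h, which is 1.17 higher (2.24-fold, adjusted p 3.75e-14). Sort1, the sorting receptor sortilin, was at -0.95 at 8 h (adjusted p 1.9e-08), and Scarb1, the scavenger receptor for high-density lipoprotein, at -0.80 (adjusted p 1.65e-07). In ISL1 cells at 0 h 6 of 15 were lower and 1 higher, against 10.4% and 15.3% of all genes, with Apoe at -0.92 (adjusted p 1.77e-09) and Lrp1 at -0.71. At 48 h 5 were lower and 2 higher on the high-Isl1 arrays, against 14% and 13.8% of all genes, and Apoe was at -1.07 and Sort1 at -1.31.

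Of the other 15 carbonic anhydrase genes 3 were called lower in ISL1 cells at 0 h, where 10.4% of all genes were, and 2 on the high-Isl1 arrays at 48 h, where 14% of all genes were. Car2, a fast cytosolic form, was at -1.36 in ISL1 cells at 0 h (2.57-fold lower, adjusted p 3.71e-10) and at -1.15 on the high-Isl1 arrays at 48 h (adjusted p 7.96e-09). Car11 and Car13 were the other 2 called at 0 h, at -0.37 and -0.29, and Car13 was at -0.43 at 48 h (adjusted p 3.06e-06). Car5b, a mitochondrial form, rose by 1.34 from vector cells at 0 h to the low-Isl1 arrays at 48 h (2.54-fold, adjusted p 5.65e-17) and by 1.41 from ISL1 cells at 0 h to the high-Isl1 arrays, where Car3 had a difference of -0.78 and of 1.58.

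**Figure D4:**
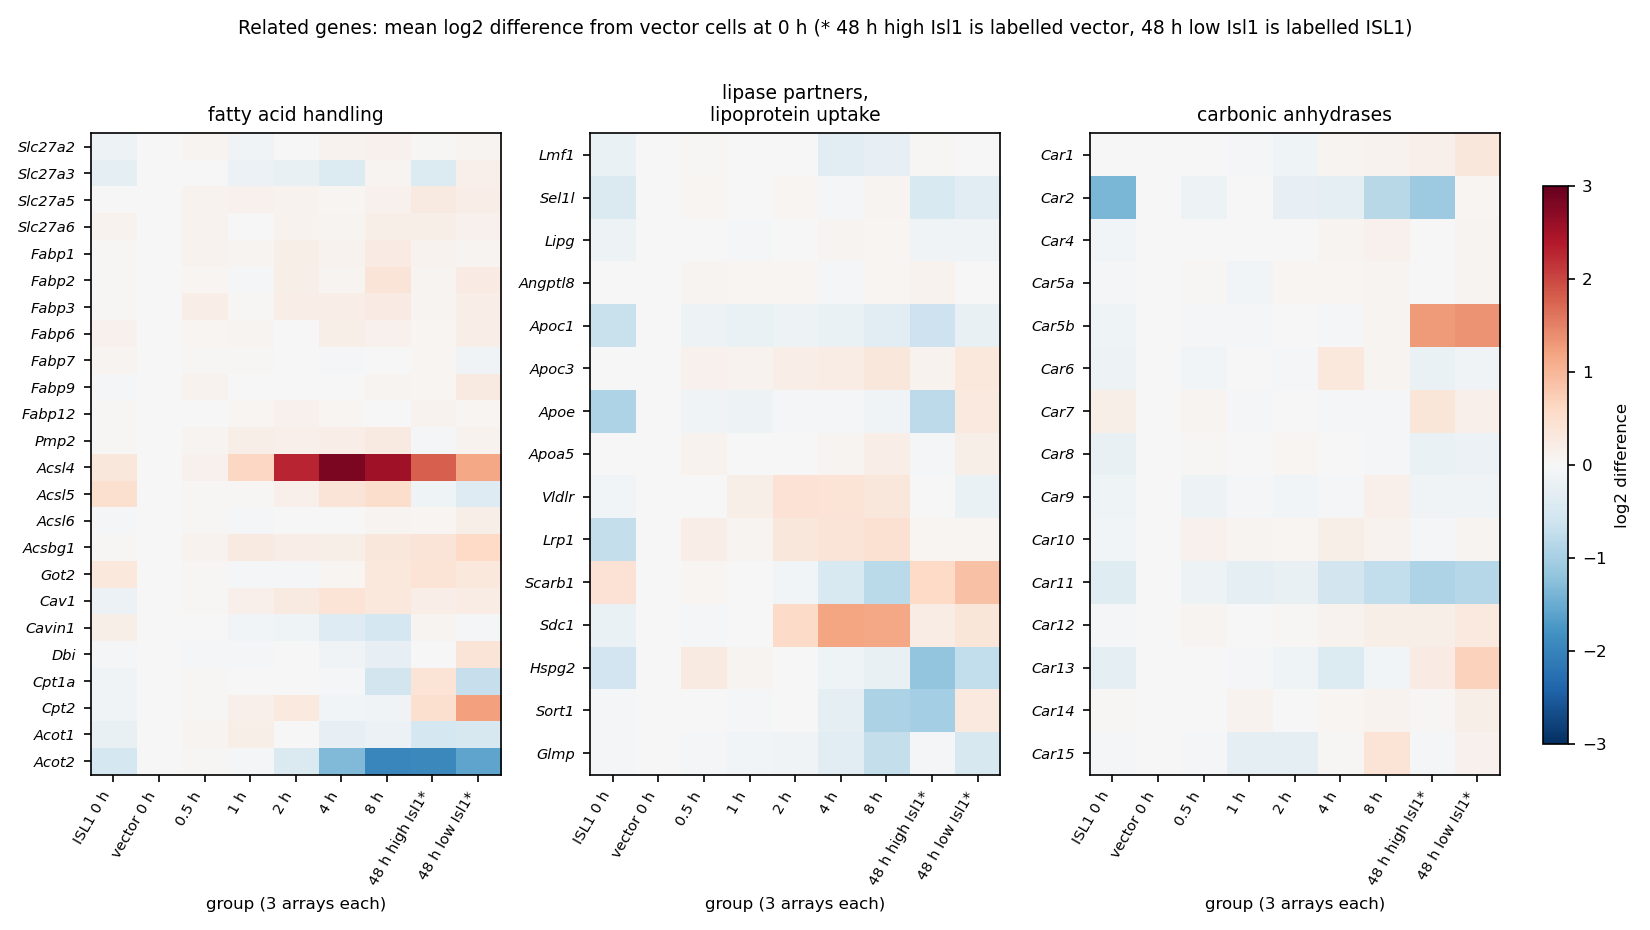
Mean log2 difference from vector cells at 0 h for the related genes in 9 groups of 3 arrays, by list, with red for higher and blue for lower values. Acsl4 is the reddest row from 2 h to 8 h, with 2.83 at 4 h, and Acot2 the bluest, with -1.96 at 8 h.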

How the data were processed

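Total RNA of the 27 samples was extracted with a column kit and labelled with biotin, per the labels' protocols. The authors deposited log2 intensities made with RMA, per the submitters' processing notes. The range of 3.35 to 14.85 in the table gave the base of the logarithm. RMA corrects background, normalizes quantiles and summarises probes, so that shifts shared by all genes are largely removed. Array medians of the deposited values still ran from 7.89 to 8.07. No source used here gives its software, version or a genome build. The deposited table has 0 missing values and 0 columns left unused. Of the probe sets 21789 had 1 gene symbol in the platform table, 1621 had several and 5443 had none. Only those with 1 were used, symbols were updated by Entrez ID for 21698, and for the 999 genes with several probe sets the brightest on average was kept.

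The log2 values as deposited were fitted with limma 3.58.1 in R 4.3.3, with 1 mean per labelled group and empirical Bayes variances (prior degrees of freedom 6.56). There were 11 comparisons and an F test, two-sided, each adjusted by Benjamini-Hochberg over 19938 genes, and the scripts were tested on simulated data. The genes and the lists were chosen with earlier results of these data known. Named genes are the 9 genes, Isl1, Pparg and Cebpa, the 4 largest changes among called genes of a list (lists of fatty acid handling, lipase partners and lipoprotein uptake, carbonic anhydrases and markers of fat cells, preadipocytes and fibroblasts, macrophages, endothelium and skeletal muscle), and the 3 genes most alike. Alternatives were median centring, quantile normalization, the mean of a gene's probe sets, a filter on dim genes, a variance trend, fits of the compared groups, the 48 h labels, single arrays left out and a replicate block. Same-numbered arrays deviated together (all 3 correlations over 0.1) in 4 of 36 pairs of groups and in 1 of the 10 compared, so the numbers were not taken as pairs.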

Additional observations from a re-analysis of the deposited data

Results flagged for a closer look

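For 6 of the 9 genes the difference between arrays with high and with low Isl1 was not the same at 48 h and at 0 h, by the test of that difference itself (limma, adjusted over all genes). The change, 48 h minus 0 h on the log2 scale, was 2.37 for Car3, 2.00 for Fabp4, 1.98 for Cd36 and 0.55 for Lpl. It was -2.00 for Fabp5 and -0.38 for Slc27a1. Over all genes, 11.4% were called above 0 and 13.2% below. The Slc27a1 call was narrow: median centring ended it (adjusted p 0.0831), as did leaving out any of several single arrays. The changes of all 6 genes use the 48 h arrays by their Isl1 signal, which goes against their labels. Read by label, the changes were 5.41 for Car3, 4.29 for Fabp4, 4.92 for Cd36, 1.11 for Lpl, 0.60 for Fabp5 and 1.01 for Slc27a1. The causes were not tested.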

How the results depend on the processing

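Of the counts of called genes among the 9, those for 8 h, for 48 h, for ISL1 at 0 h, for the change between times and for the F test stayed within 1.5 times under every alternative run that keeps all arrays. At 1 h the count was 2 in place of 1 under quantile normalization, the mean of probe sets, the filter on dim genes, the variance trend and a fit without the 48 h arrays (chosen after seeing the data), since Fabp5 was then called. At 2 h it was 4 in place of 2 under quantile normalization, and at 4 h it was 2 in place of 4 under median centring. The filter on dim genes left out Gpihbp1 and kept 8. The count over all genes at 1 h was 1410, and 912 with only the compared groups in the fit. With single arrays left out, counts ranged from 0 to 0 at 0.5 h, 1 to 1 at 1 h, 1 to 2 at 2 h, 2 to 4 at 4 h, 7 to 9 at 8 h, 8 to 9 and 6 to 6 for low-Isl1 48 h arrays against 0 h and 8 h, 5 to 7 for ISL1 at 0 h, 6 to 7 for high against low Isl1 at 48 h, 8 to 8 for high-Isl1 48 h arrays against ISL1 at 0 h, 5 to 6 for the change between times and 7 to 8 for the F test. With the replicate number as a block the counts were 0, 1, 2, 4, 8, 8, 6, 7, 7, 8, 6 and 7 in the same order, and it changed no call of the 9 genes. Signs that turned at 2 h belonged to differences that were not called: Cd36 was 0.016 under quantile normalization, and Slc27a4 was 0.018 under median centring and 0.048 under quantile normalization. Other differences that were not called crossed 0 when single arrays were left out. At 0.5 h these ranged from -0.05 to 0.014 for Lpl, -0.097 to 0.041 for Slc27a1, -0.005 to 0.116 for Slc27a4 and -0.251 to 0.047 for Car3. At 1 h they ranged from -0.114 to 0.002 for Slc27a1 and -0.092 to 0.045 for Car3, and at 2 h from -0.094 to 0.026 for Slc27a4. For low-Isl1 48 h arrays against 8 h they ranged from -0.102 to 0.181 for Gpihbp1 and -0.177 to 0.051 for Car3, and for high-Isl1 48 h arrays against ISL1 at 0 h from -0.072 to 0.058 for Gpihbp1. The change between times ranged from -0.053 to 0.103 for Slc27a4 and -0.076 to 0.09 for Angptl4. Read by label at 48 h, vector against 0 h gave -0.17 for Cd36, and vector against 8 h gave 0.02 for Slc27a4 and -0.11 for Gpihbp1. ISL1 against vector at 48 h then gave 1.47 for Cd36, 1.15 for Fabp4, 1.30 for Fabp5, 0.28 for Lpl, 0.70 for Slc27a1, -0.11 for Slc27a4, 0.19 for Gpihbp1, 0.27 for Angptl4 and 1.52 for Car3, which are the same values with the sign turned. ISL1 at 48 h against 0 h gave 0.17 for Gpihbp1, and -0.14 for Slc27a1, which lost its call. The change between times gave 0.60 for Fabp5, 1.01 for Slc27a1, -0.20 for Slc27a4 and 0.061 for Gpihbp1. Causes of these shifts were not tested. No detection calls were used, so signal over background limits Gpihbp1 and other dim probe sets.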
